A study of Mus musculus with 24 samples.

Results

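The 9 genes described here are the central components of the Sonic hedgehog (Shh) pathway: the ligand Shh, its receptor Ptch1, the co-receptors Boc and Cdon, the ligand-binding inhibitor Hhip, the transducer Smo, and the transcription factors Gli1, Gli2 and Gli3. They were found by gene symbol, and each of the 9 matched 1 of the 23119 genes in the table. The set was chosen by the measured levels of Ptch1 and Gli1, which were lower in SmcHD1-mutant than in wild-type cells at day 7 and day 9. The levels of all 9 genes at those stages are therefore given as a description, with no test, and these genes are tested only in mESCs and NSCs, which the choice did not use. Calls of other genes at day 7 and day 9 come from the stages that served to choose the set and are not independent of it.

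Libraries came from JB4/EI7HZ2 cells, a female mouse embryonic stem cell (mESC) line from a cross of a JF1 mother with a B6 father, and were made at 4 stages: mESCs, cells after 7 or 9 days of differentiation to neurectoderm, and neural stem cells (NSCs). The NSCs were derived from the mESCs by a separate protocol and kept with FGF2 and EGF, so they do not follow from the day 9 cells. The wild-type (WT) groups are the unmodified line, and the SmcHD1-mutant (KO) groups are a line made from it by CRISPR-Cas9, with both Smchd1 alleles disrupted. Each of the 8 groups, WT or KO at 1 stage, had 3 libraries, and all mESCs of both lines were kept in serum with 2i/LIF under G418 and zeocin, which hold both X chromosomes. WT and KO are 1 line each, so genotype and line cannot be told apart. The study describes its replicates as independent biological experiments, and the p-values measure the spread between such experiments on these lines. That spread is estimated for each gene over all 24 libraries, so those of day 7 and day 9, which served to choose the set, enter it.

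In the hedgehog pathway, Ptch1 without ligand keeps Smo inactive, and the Gli proteins, Gli3 above all, are cut into repressors at the primary cilium. Shh binding to Ptch1, helped by Boc, Cdon and Gas1, frees Smo, which lets full-length Gli2 and Gli3 act as activators. Ptch1, Gli1 and Hhip are themselves Gli targets, and because Ptch1 and Hhip bind the ligand, they damp the signal that raises them. In the neural tube, Shh is made by the notochord and then by the floor plate, and it sets ventral fates (Foxa2, Nkx2-2, Nkx6-1, Olig2) against dorsal and lateral ones (Pax3, Pax7, Irx3, Pax6).

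Levels are FPKM as estimated by Cuffdiff, in which the fragments of a gene are divided by the length of its transcript and by the depth of the library. Sums of FPKM ran from 504660 to 802938 per library, and relative read numbers, worked out from the smallest steps of low genes, from 0.81 to 1.15. Smchd1, the targeted gene, lay between 13.0 and 26.4 FPKM in WT and between 1.82 and 4.40 FPKM in KO libraries. The 4 mESC markers (Pou5f1, Nanog, Fgf4, Zfp42) summed to at least 2159 FPKM in every mESC library and to at most 1.26 FPKM in every NSC library. The 4 NSC markers (Nes, Fabp7, Olig2, Vim) summed to between 5204 and 6685 FPKM in WT NSCs, to between 3699 and 4580 FPKM in KO NSCs, with no overlap, and to between 90.7 and 154 FPKM in mESCs, so mESCs and NSCs carried the markers of their labels. The mESC markers still summed to between 263 and 401 FPKM at day 7.

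Gli proteins bind a 9-base consensus, GACCACCCA, and its occurrence near the genes is shown because Ptch1, Gli1 and Hhip are Gli targets. The promoter table (RefSeq, GRCm38.p6, 250 bases before to 50 after each start) held Ptch1, Smo, Gli2, Gli3, Hhip and Cdon. None of these 6 windows held GACCACCCA on either strand, against 0.253% of 32851 windows, nor ACCACCCA, which is the same motif without its first base and so overlaps it, against 1.48%. A wider window, 2000 bases on either side of the gene's start in the deposited table (mm9), was chosen after that result was seen. In it the same 6 members were scanned, while Shh, Gli1 and Boc, which have no entry in the promoter table, were not. GACCACCCA occurred near Ptch1 and in 3.42% of 11796 tested genes scanned, and ACCACCCA near Ptch1, Smo and Hhip and in 19.3% of the genes scanned. The matched letters are in capitals below, read 5′ to 3′ on the gene's strand, with 20 bases on either side. Each is the reverse complement of the motif. The Ptch1 match lies 923 bases upstream of the gene's start (chr13:63667723-63667771, minus strand), the Smo match 1452 bases upstream (chr6:29684025-29684072, plus strand) and the Hhip match 1824 bases downstream (chr8:82580056-82580103, minus strand).
Ptch1: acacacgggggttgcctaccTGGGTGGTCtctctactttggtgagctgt
Smo: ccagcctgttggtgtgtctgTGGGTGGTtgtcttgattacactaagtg
Hhip: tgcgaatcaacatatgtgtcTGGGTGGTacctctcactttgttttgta
A match describes letters and is not a measured binding site.

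Shh (chr5:28783380-29045749, mm9), the ligand, was near 0 in mESCs and NSCs of both lines and appeared at day 7 and day 9, mainly in WT cells. At day 7 the WT libraries held 4.27, 21.0 and 24.2 FPKM (replicates 1 to 3) and the KO libraries 0.0672, 0.169 and 0.168 FPKM. In reads, worked out from the steps of the gene's values, these were 60, 255 and 279 against 1, 2 and 2, so Shh was at the edge of detection in KO day 7 cells. At day 9 it stood at 21.5, 43.0 and 31.9 FPKM in WT and at 1.60, 10.3 and 1.97 FPKM in KO libraries, the mean of WT being 6.93 times that of KO (17.99 times without KO day 9 replicate 2). The libraries did not overlap between the lines at either stage, although KO day 9 replicate 2, at 145 reads, exceeded WT day 7 replicate 1, at 60. The difference on the log2(FPKM + 1) scale, on which all differences below are given, was -3.66 ± 0.47 (SE) at day 7 and -2.85 ± 0.47 at day 9. Adding 0.1 in place of 1 before the log gave -5.83 at day 7. The 12 mESC and NSC libraries held 0 or 1 read of Shh each. The deposited Shh entry overlaps 9530036O11Rik, a non-coding gene on the other strand, which was listed at no more than 0.131 FPKM in any library.

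Ptch1 (chr13:63612841-63666828), the Shh receptor and a target of the pathway, was higher in WT cells at day 7 and day 9 than in mESCs, whereas the KO day 7 libraries overlapped those of mESCs. WT day 7 libraries held 32.1, 60.2 and 50.4 FPKM and KO day 7 libraries 11.9, 10.7 and 9.66 FPKM, against a mean of 10.9 ± 0.601 FPKM (SD, n = 3) in WT mESCs and 11.98 ± 1.004 FPKM in KO mESCs. The WT mean was 4.42 times the KO mean at day 7. At day 9 the WT libraries stood at 54.4, 61.8 and 67.7 FPKM and the KO libraries at 18.4, 37.6 and 27.3 FPKM, a ratio of means of 2.21. Each KO day 9 library lay above each KO day 7 library and below each WT day 9 library. The log2 difference between KO and WT was -2.003 ± 0.24 at day 7 and -1.17 ± 0.24 at day 9. In order of mean level the groups ran WT day 9, WT day 7, KO day 9, WT NSC, KO NSC, KO mESC, WT mESC and KO day 7, and the only neighbours in that order whose libraries did not overlap were KO NSC and KO mESC.

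Hhip (chr8:82489750-82581907), which binds hedgehog ligands at the cell surface and is induced by them, had a mean below 1 FPKM over the 24 libraries and was therefore not among the tested genes. It was highest in WT day 9 cells, at 1.91, 2.57 and 1.93 FPKM (99, 130 and 96 reads), against 0.121, 0.673 and 0.219 FPKM (6, 34 and 10 reads) in KO day 9 cells. Its WT mean at day 9 was 6.33 times its KO mean (12.56 times without KO day 9 replicate 2), and the libraries did not overlap. At day 7 the WT libraries held 0.257, 0.479 and 0.554 FPKM and the KO libraries 0.131, 0.281 and 0.0935 FPKM, and KO replicate 2 lay above WT replicate 1. In mESCs no library exceeded 7 reads.

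Boc and Cdon, cell-surface proteins that bind Shh together with Ptch1, were higher in KO than in WT cells at day 9, the opposite direction to Ptch1. Boc (chr16:44485158-44558983) held 16.1, 7.84 and 6.42 FPKM in WT and 39.1, 34.1 and 42.4 FPKM in KO day 9 libraries, a KO mean 3.81 times the WT mean. Cdon (chr9:35259661-35315237) held 2.86, 4.80 and 3.54 FPKM in WT and 18.6, 7.71 and 13.1 FPKM in KO day 9 libraries, a ratio of 3.52. For both genes each KO library lay above each WT library at day 9. The log2 differences were 1.92 ± 0.21 for Boc and 1.52 ± 0.27 for Cdon. At day 7 the libraries of the lines overlapped for both genes, with Boc at 9.87, 7.38 and 7.59 FPKM in WT and 9.53, 11.3 and 12.03 FPKM in KO cells, and differences of 0.37 ± 0.21 for Boc and 0.26 ± 0.27 for Cdon. The Boc entry overlaps the microRNA gene Mir3081.

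Smo (chr6:29685497-29711366), the membrane protein that carries the signal to the Gli factors, was expressed at 36.8 FPKM or more in every library after the mESC stage. At day 7 it stood at 47.9, 56.0 and 54.7 FPKM in WT and 62.4, 62.1 and 65.4 FPKM in KO libraries, and at day 9 at 49.19, 50.22 and 50.03 FPKM in WT and 64.5, 67.7 and 66.3 FPKM in KO libraries. The libraries did not overlap at either stage. These differences were small beside those of Ptch1, 0.26 ± 0.14 at day 7 and 0.40 ± 0.14 at day 9, a KO mean 1.33 times the WT mean at day 9.

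**Figure D1:**
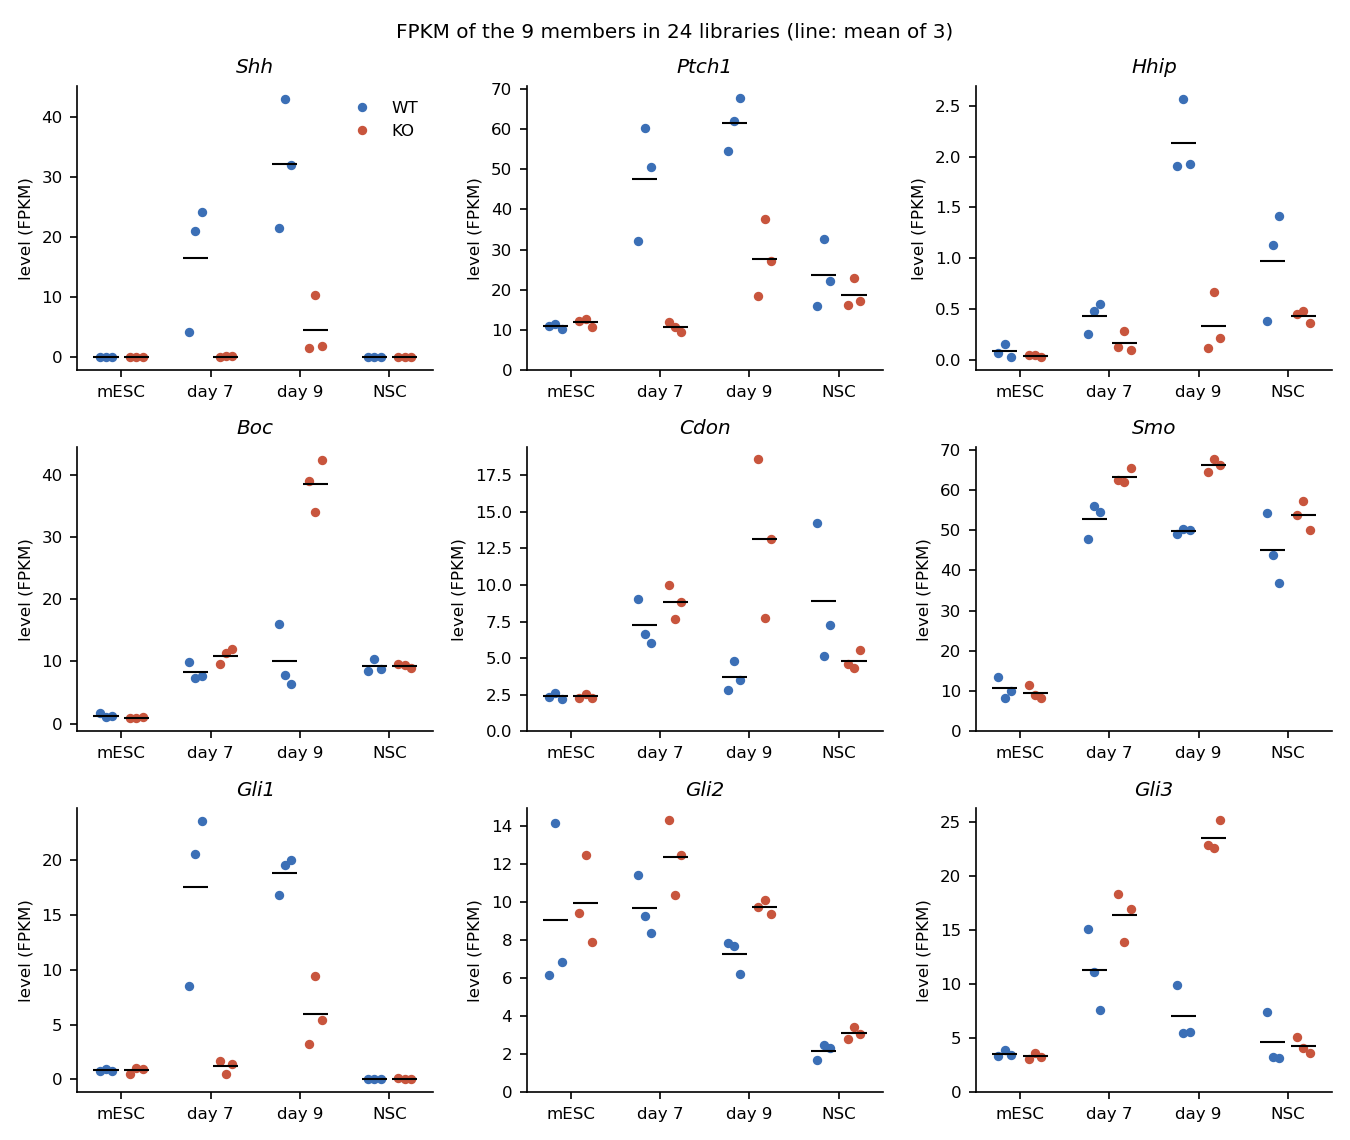
Level in FPKM (vertical axis, linear, with its own range for each gene) of the 9 genes in the 24 libraries by stage, WT in blue and KO in red, each point a library and each line the mean of 3. Shh, Ptch1, Gli1 and Hhip are lower in KO cells at day 9 and Smo, Gli2, Gli3, Boc and Cdon higher, with no overlap of the libraries for any of the 9.

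Gli1 (chr10:126760783-126778635), an activator whose own transcription follows the pathway, showed the same order of groups as Ptch1 at day 7 and day 9. At day 7 the WT libraries held 8.51, 20.6 and 23.6 FPKM (168, 351 and 382 reads) and the KO libraries 1.68, 0.541 and 1.38 FPKM (35, 9 and 23 reads), a WT mean 14.6 times the KO mean. At day 9 WT libraries held 16.88, 19.56 and 20.02 FPKM and KO libraries 3.22, 9.44 and 5.39 FPKM, a ratio of 3.13. The lines did not overlap at either stage. The log2 difference was -3.00 ± 0.30 at day 7 (-3.76 with 0.1 added in place of 1) and -1.59 ± 0.30 at day 9. The locus overlaps Arhgap9, which lay between 4.09 and 7.41 FPKM in mESCs and at no more than 1.63 FPKM at day 7 and 1.09 FPKM at day 9.

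Gli3 (chr13:15555556-15821858), the main repressor of the pathway in the absence of ligand, was higher in KO cells at day 9. It held 9.96, 5.50 and 5.62 FPKM in WT and 22.9, 22.6 and 25.2 FPKM in KO day 9 libraries, a KO mean 3.35 times the WT mean and a log2 difference of 1.66 ± 0.24. At day 7 the difference was 0.54 ± 0.24, and the libraries overlapped, at 15.2, 11.1 and 7.59 FPKM in WT and 18.4, 13.93 and 16.95 FPKM in KO cells. In KO cells the mean of Gli3 was higher at day 9 than at day 7, whereas in WT cells it was lower. Gli2 (chr1:120730638-120950196), the main activator, moved less, with 7.85, 7.71 and 6.26 FPKM in WT and 9.76, 10.1 and 9.38 FPKM in KO day 9 libraries and a difference of 0.38 ± 0.21. The Gli2 libraries of day 7 overlapped, with a difference of 0.32 ± 0.21.

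Among the 8 members with a mean of at least 1 FPKM over the 24 libraries, the 3 KO libraries lay apart from the 3 WT libraries for Boc (KO lower) in mESCs, for Shh, Ptch1 and Gli1 (KO lower) and Smo (KO higher) at day 7, for all 8 at day 9 (3 lower and 5 higher) and for Gli2 (KO higher) in NSCs. Of all 12105 tested genes, 5.07% lay apart with KO higher and 5.93% with KO lower in mESCs. The same shares were 11.6% and 12.3% for day 7, then 15.4% and 16.8% for day 9, with 8.16% and 8.54% for NSCs. The genes were chosen with the values of day 7 and day 9 known, and the shares of those stages are printed for scale, with nothing read from them.

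**Figure D2:**
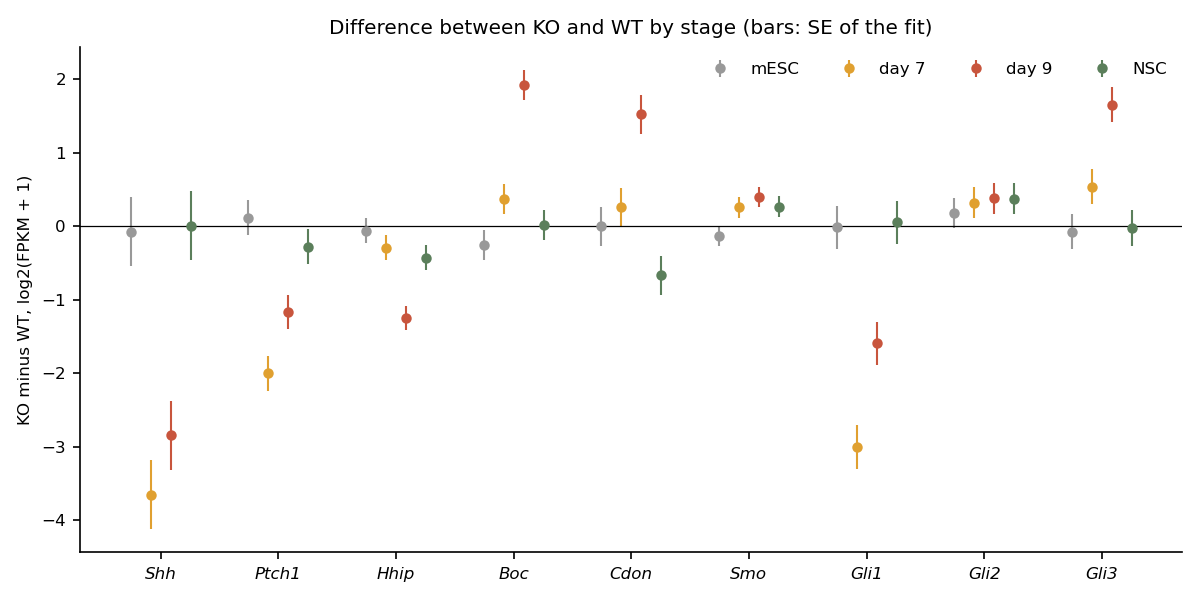
Difference between KO and WT in log2(FPKM + 1) (vertical axis) for the 9 genes at the 4 stages (colours), each point a fitted difference and each bar its SE. Shh, Ptch1 and Gli1 lie between -3.66 and -1.17 at day 7 and day 9 and Boc, Gli3 and Cdon between 1.52 and 1.92 at day 9. In mESCs and NSCs the 8 genes with a mean of at least 1 FPKM over the 24 libraries lie between -0.66 and 0.38.

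In some libraries the ligand and the targets of the pathway stood together at one end of their group. WT day 7 replicate 1 had the lowest Shh, Ptch1, Gli1 and Hhip of its group and the highest Boc, Gli3 and Cdon. KO day 9 replicate 2 had the highest Shh, Ptch1, Gli1 and Hhip of its group, while its Boc, Gli3 and Cdon were the lowest. WT day 9 replicate 1 had the lowest Shh, Ptch1, Gli1 and Hhip of its group and the highest Boc and Gli3, but also the lowest Cdon. KO day 9 replicate 1 had the lowest Shh, Ptch1, Gli1 and Hhip of its group and the highest Cdon, with Boc and Gli3 between those of the other replicates. Other libraries did not follow this. In KO day 7 cells replicate 1 had the lowest Shh, at 1 read, and the highest Ptch1 and Gli1, and in WT day 9 cells Shh and Hhip were highest in replicate 2 but Ptch1 and Gli1 in replicate 3. Without WT day 7 replicate 1 the day 7 differences were -4.38 for Shh, -2.26 for Ptch1 and -3.43 for Gli1. Without KO day 9 replicate 2 those of day 9 were -3.52, -1.41 and -1.93. These are values of 3 libraries a group, described with no test.

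**Figure D3:**
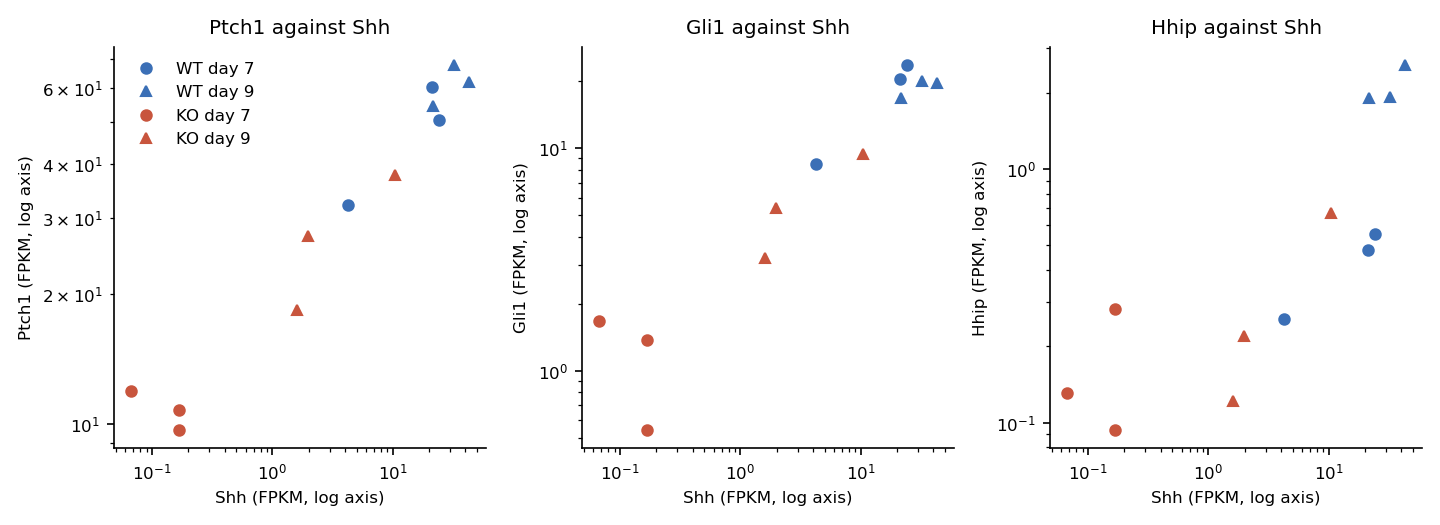
Level of Ptch1, Gli1 and Hhip (vertical axes, FPKM, log scale) against that of Shh (horizontal axis, FPKM, log scale) in the 12 libraries of day 7 (circles) and day 9 (triangles), WT in blue and KO in red, each point a library. WT day 7 replicate 1, at 4.27 FPKM of Shh, and KO day 9 replicate 2, at 10.3 FPKM, lie between the other KO and the other WT libraries for Ptch1 and Gli1.

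Markers of other cell types moved with these genes. The 4 notochord markers (T, Noto, Chrd, Nog) summed to between 68.7 and 163 FPKM in WT and between 2.72 and 3.48 FPKM in KO day 7 libraries, and to between 18.1 and 37.7 FPKM against between 6.74 and 18.5 FPKM at day 9. The 3 that were tested were all called lower in KO cells at day 7 and 1 of them at day 9. Noto, the defining notochord gene, was at 4.88, 8.40 and 4.89 FPKM in WT day 7 cells, at 0 in 2 of the 3 KO day 7 libraries, and at 0 in all WT day 9 libraries. The 4 floor plate markers (Foxa2, Spon1, Ntn1, Lmx1a) summed to between 33.4 and 68.6 FPKM in WT against between 24.4 and 28.2 FPKM in KO cells at day 7, and to between 138 and 213 FPKM against between 14.9 and 54.8 FPKM at day 9. Of these 4, 2 were called lower at day 7 and 3 at day 9. The day 7 difference in the sum lay largely in Foxa2, also counted among the Gli targets below, and without it the sums of the lines overlapped. The 5 endoderm markers (Sox17, Gata4, Gata6, Cer1, Sox7) summed to between 46.0 and 115 FPKM in WT and between 0.750 and 3.38 FPKM in KO day 7 libraries, with both tested markers called lower, and to at most 5.90 FPKM at day 9, with 0 called. In every library outside WT day 7 the endoderm sum was at most 5.90 FPKM. Both tested endoderm markers thus reached the mean of 1 FPKM needed for a test mainly through WT day 7, and nothing is read from their calls. The 4 mesoderm markers (Tbx6, Meox1, Snai1, Mesp1) summed to between 9.28 and 37.5 FPKM against between 1.61 and 3.43 FPKM at day 7, with both tested markers called lower, and to between 5.62 and 18.1 FPKM against between 3.16 and 3.91 FPKM at day 9, with 1 called lower. Tbx6 and Mesp1 did not reach the mean of 1 FPKM, so this list was also cut by that filter. Mesp1 was at 0 in all 6 KO libraries of these stages. WT day 7 replicate 1 and WT day 9 replicate 1 had the lowest sums of their groups for all of these 4 lists, and KO day 9 replicate 2 had the highest of its group for notochord and floor plate but not for endoderm. For mesoderm KO day 9 replicates 2 and 3 were nearly level, at 3.907 and 3.896 FPKM. The part of these cells in the levels of the pathway genes was not tested, and in bulk RNA fewer cells of a type and less RNA per cell cannot be told apart. The early neurectoderm markers (Sox1, Pax6, Sox2, Zfp521) summed to between 187 and 220 FPKM in WT and between 253 and 259 FPKM in KO day 7 libraries, with 1 called higher, and to between 197 and 263 FPKM against between 304 and 314 FPKM at day 9, with 2 called higher. The NSC markers summed to between 263 and 334 FPKM in WT and between 167 and 264 FPKM in KO day 7 libraries, with 2, Olig2 and Vim, called lower, and to between 1242 and 1527 FPKM against between 1477 and 1702 FPKM at day 9, with 1, Olig2, called lower. Several of these marker calls were lost when 1 library was left out: Snai1, Vim, Olig2 and Sox1 at day 7, and T, Meox1, Olig2, Sox1 and Pax6 at day 9. With the compared libraries alone the calls of Lmx1a, Vim and Meox1 at day 7 and of Foxa2, Ntn1, T, Meox1, Olig2 and Pax6 at day 9 were lost, so that of the floor plate calls 1 (Foxa2) remained at day 7 and 1 (Spon1) at day 9.

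Other genes of the pathway were taken from lists that hold no member, and calls are from limma at an adjusted p under 0.05 over all 12105 tested genes. The background over all tested genes at day 7 was 1.18% higher and 2.5% lower in KO cells, and at day 9 it was 2.58% and 4.11%. With each library scaled to the same sum of FPKM, the share of the called genes that were higher went from 38.6% to 22.7% at day 9. Nothing is read from the counts at these stages against those shares, since the stages served to choose the set. Of the 11 Gli targets outside the set described here, 10 were tested, and 5 were called lower and 0 higher at day 7, and 6 lower and 0 higher at day 9. Their median log2 difference was -1.22 at day 7 and -1.93 at day 9, beside medians of -0.00052 and 0.0 over all tested genes. In a fit of the compared libraries alone 3 of the 5 calls at day 7 (Nkx2-9, Nkx6-2, Hsd11b2) and all 6 at day 9 (Nkx2-2, Nkx2-9, Nkx6-1, Nkx6-2, Foxa2, Olig2) were lost. Over all tested genes that fit called 1377 at day 9 in place of 809. Leaving out 1 library ended the call of Olig2 at day 7 (without WT replicate 3 or KO replicate 1), of Olig2 at day 9 (without WT replicate 2 or 3 or KO replicate 1) and of Nkx2-9 at day 9 (without KO replicate 1 or 3).

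The targets with the largest differences among those called at day 7 were Nkx2-9, Foxa2 and Nkx6-2. Nkx2-9, a homeobox gene of the floor plate region, held 9.15, 59.8 and 59.9 FPKM in WT and 0, 0.789 and 0 FPKM in KO day 7 libraries (log2 difference -4.79 ± 0.58). Foxa2, which specifies floor plate and notochord, held 15.1, 37.8 and 35.9 FPKM against 0.344, 1.40 and 0.431 FPKM at day 7 (-4.10 ± 0.40). Nkx6-2, a ventral progenitor factor, held 6.51, 41.6 and 54.4 FPKM against 2.04, 1.83 and 1.83 FPKM at day 7 (-3.17 ± 0.58), and the lines did not overlap for any of these genes. At day 9 the largest differences were those of Nkx2-2, a factor of ventral interneuron progenitors, at 20.9, 34.6 and 34.1 FPKM in WT and 0.0972, 8.41 and 0.947 FPKM in KO cells (-3.47 ± 0.49), of Nkx6-1, a ventral progenitor factor, at 81.3, 117 and 113 FPKM against 4.73, 27.6 and 6.83 FPKM (-3.25 ± 0.55), and of Nkx6-2 (-3.21 ± 0.58). In each of these genes KO day 9 replicate 2 was the highest KO library, as it was for Shh, Ptch1 and Gli1. Among the targets not called at either stage, Mycn, a driver of progenitor division, differed by -0.11 ± 0.29 at day 7 and 0.11 ± 0.29 at day 9, Rab34, a ciliary membrane-trafficking gene, by -0.29 ± 0.13 and -0.26 ± 0.13, and Ccnd1, a cyclin of the cell cycle, by -0.23 ± 0.49 and -0.50 ± 0.49. These 3 were named after their values were seen.

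Of the 6 neural tube genes that hedgehog lowers, all tested, 0 were called at day 7 by limma (1 at an unadjusted p under 0.05) and 4 were called higher in KO cells at day 9. Pax3, a dorsal factor, held 6.91, 1.20 and 0.956 FPKM in WT and 35.1, 26.6 and 43.6 FPKM in KO day 9 libraries (3.45 ± 0.36), and Pax7, its close relative, 6.39, 0.904 and 0.876 FPKM against 17.6, 15.0 and 25.4 FPKM (2.74 ± 0.37). Irx3, a lateral factor, held 65.4, 38.1 and 35.5 FPKM against 87.3, 104 and 117 FPKM (1.18 ± 0.22). WT day 9 replicate 1, which had the lowest Shh of its group, was its highest library for all of Pax3, Pax7 and Irx3. The fourth, Pax6, differed by 0.83 ± 0.24, and its libraries overlapped. The Pax6 call was lost in 8 of 12 alternatives, among them without WT day 9 replicate 2 or 3 or KO day 9 replicate 2 or 3, and those of Pax6 and Pax7 with the compared libraries alone. The progenitor factors Dbx1 and Dbx2 differed by -0.33 ± 0.34 and -0.11 ± 0.52 at day 9.

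**Figure D4:**
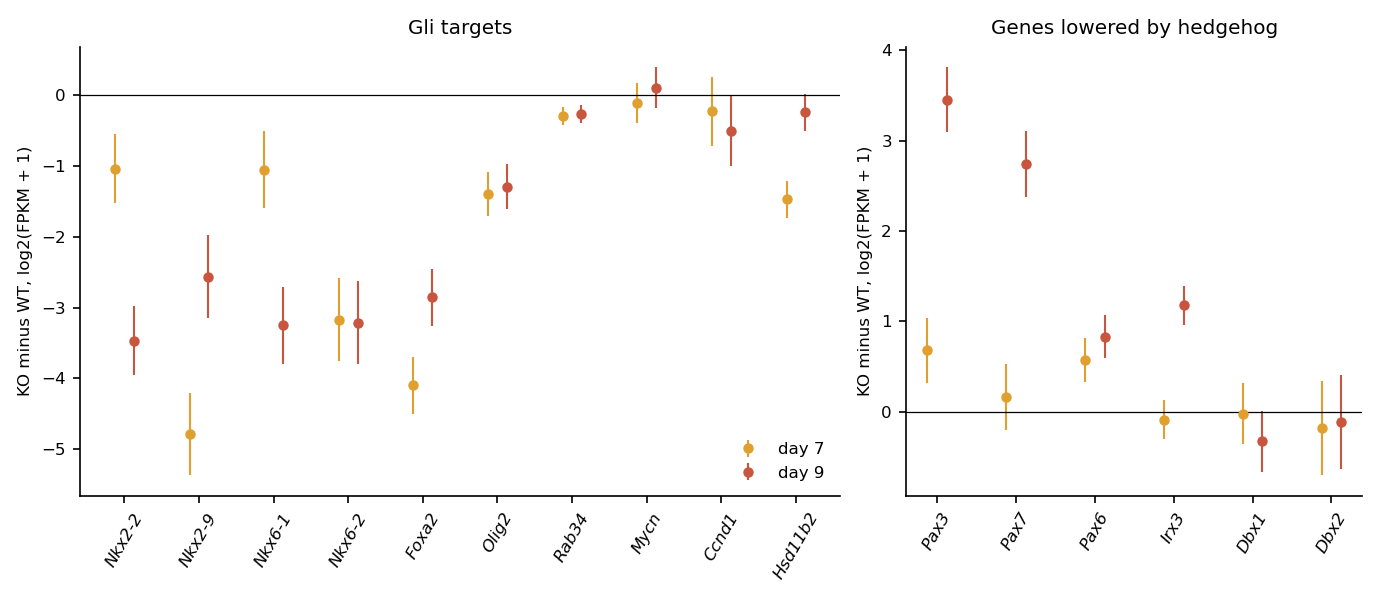
Difference between KO and WT in log2(FPKM + 1) (vertical axes) at day 7 and day 9 for the 10 tested Gli targets outside the set (left) and 6 genes lowered by hedgehog (right), each point a fitted difference and each bar its SE. Nkx2-9, Foxa2 and Nkx6-2 lie at -3.17 or below at day 7, and Pax3 and Pax7 at 2.74 or above at day 9.

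The co-receptors outside the set described here are Gas1 and Lrp2. Gas1, a co-receptor like Boc and Cdon, was called higher at day 9, at 17.3, 8.32 and 12.6 FPKM in WT and 62.8, 50.7 and 65.2 FPKM in KO cells (2.19 ± 0.19), so it took the direction of Boc and Cdon. Lrp2, a large endocytic receptor that binds Shh, was called higher at day 7 (0.73 ± 0.19) and day 9 (0.85 ± 0.19). Its call at day 7 was lost in 8 of 12 alternatives, among them without WT replicate 2 or 3 or KO replicate 1 or 3, and at day 9 in 0 of 12. Of the 7 genes that make or release ligand, 4 were tested, and 1 was called, higher at day 7: Scube2, which helps Shh leave the cell, at 2.03, 1.87 and 0.955 FPKM in WT and 6.46, 4.08 and 7.90 FPKM in KO libraries (1.44 ± 0.28). That call was lost with 0.1 added in place of 1. The other hedgehog ligands, Ihh and Dhh, were at most 0.482 FPKM in every library outside NSCs except for Dhh in WT mESC replicate 1 at 0.532 FPKM. Both had a mean below 1 FPKM over the 24 libraries, and their NSC levels are not given here. Disp1 was listed at 0 in all 24 libraries, but whether reads of the gene could be assigned to this entry was not checked.

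Genes further down the pathway stand beside the background of 1.18% higher and 2.5% lower at day 7 and 2.58% and 4.11% at day 9, and nothing particular to them is read from their counts. Of 6 genes whose proteins act on Smo at the cilium, all tested, 0 were called at day 7 (1 at an unadjusted p under 0.05) and 1, Evc (0.59 ± 0.15), a partner of Smo, was called higher at day 9. Of 10 genes whose proteins act on Gli factors, all tested, 0 were called at day 7 (2 at an unadjusted p under 0.05) and 1, the kinase Gsk3b (-0.46 ± 0.13), was called lower at day 9. The Evc call was lost without WT day 9 replicate 2 or 3 or KO day 9 replicate 1 or 3, and the Gsk3b call in 6 of 12 alternatives, among them without any 1 of the WT day 9 replicates or KO day 9 replicate 1 or 2. Sufu, the main Gli inhibitor, held 19.80, 23.19 and 19.96 FPKM in WT and 19.4, 21.8 and 20.8 FPKM in KO day 9 libraries. Of 8 genes that build the cilium, 0 were called at either stage, with 1 at day 7 and 2 at day 9 at an unadjusted p under 0.05.

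Shh and Gli1 passed the filter on low values through their day 7 and day 9 levels alone, each being at or below 1.07 FPKM in mESCs and NSCs, and are given at those stages without a test. In mESCs 0 of the other 6 tested members were called between KO and WT cells (limma), and 0 had an unadjusted p under 0.05, with 0.116% of all tested genes called higher and 0.413% lower. With same-numbered libraries paired through a block, 6 genes were called in mESCs in place of 64, and still 0 members. The log2 differences ran from -0.26 ± 0.21 (Boc, adjusted p 0.866) to 0.18 ± 0.21 (Gli2, adjusted p 0.931). For Ptch1 the interval of 2 SE on either side of the difference ran from -0.36 to 0.59. Its SE of 0.237, from all 24 libraries, was 0.115 with the mESC libraries alone, where Ptch1 was not called either. The mESC levels of Gli1 were 0.777, 0.947 and 0.797 FPKM in WT and 0.500, 1.07 and 0.953 FPKM in KO libraries, from 8 to 18 reads. Of the other lists of pathway and target genes, 0 members were called in mESCs, with 1 gene acting on Gli factors and 1 cilium gene at an unadjusted p under 0.05.

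In NSCs 0 of these 6 members were called between the lines by limma, and 1, Cdon, had an unadjusted p under 0.05, where 2.54% of all tested genes were called higher and 3.48% lower. After scaling to the same sum of FPKM, 54.4% of the called genes were higher in place of 42.2%. With same-numbered libraries paired through a block, 12 genes were called in NSCs in place of 729, so these shares depend on the unpaired fit. Cdon held 14.3, 5.17 and 7.28 FPKM in WT and 4.59, 4.35 and 5.54 FPKM in KO NSCs, a difference of -0.66 ± 0.27 with an adjusted p of 0.169. WT replicate 1 stood far above the other WT libraries, and the groups overlapped. Without WT NSC replicate 2 the difference was -0.95 and limma's adjusted p 0.037, and without WT NSC replicate 1 it was -0.30 and 0.517, the adjusted p of the other alternatives lying between these. Ptch1 held 16.1, 32.7 and 22.2 FPKM in WT and 16.2, 22.9 and 17.3 FPKM in KO NSCs, a difference of -0.28 ± 0.24 (adjusted p 0.619) with an interval of 2 SE from -0.75 to 0.20. Gli2 was the single member whose libraries did not overlap, at 1.69, 2.50 and 2.36 FPKM in WT and 2.83, 3.42 and 3.08 FPKM in KO NSCs, with an adjusted p of 0.379. Gli1 had 1, 0 and 0 reads in WT and 2, 0 and 1 in KO NSCs, so no difference was detectable at this depth. Hhip, untested under the filter, held 0.385, 1.13 and 1.41 FPKM against 0.448, 0.485 and 0.363 FPKM, and with no filter its difference was -0.43 ± 0.17 (adjusted p 0.186).

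Among the other lists, Mycn was called lower in KO NSCs, at 1.67, 4.25 and 7.08 FPKM in WT and 1.05, 1.25 and 0.673 FPKM in KO libraries (-1.29 ± 0.29, limma adjusted p 0.00839), the only call among 10 tested Gli targets. Spop, an adaptor that sends Gli proteins for degradation, was called lower by -0.40 ± 0.12 (adjusted p 0.0492), the only call among 10 genes acting on Gli factors. The NSC markers, lower in sum in KO NSCs, held 1 call, Vim (-0.55 ± 0.16, adjusted p 0.0415), and the early neurectoderm markers 1, Sox2 (-0.49 ± 0.13, adjusted p 0.0308), both lower in KO NSCs, and their part in the other calls was not tested. Of 12 alternatives 9 lost the call of Vim and 7 that of Sox2, most of them by leaving out 1 library, with adjusted p up to 0.133 and 0.427. None of Mycn, Spop, Vim and Sox2 was called with replicate numbers as a block, with adjusted p of 0.246 for Mycn and 0.214 for Spop. Across 12 alternatives Mycn had an adjusted p between 6.14e-05 and 0.268, and its call was lost in 4 (among them without WT NSC replicate 3 or KO NSC replicate 3). Spop had one between 0.000312 and 0.483, and its call was lost in 9 (among them without WT NSC replicate 2 or 3 or KO NSC replicate 1 or 2). The difference between the KO effect in NSCs and that in mESCs was called for 0 of the 6 members, with 0 at an unadjusted p under 0.05, against 2.26% of all tested genes called in either direction (61.7% of the called genes positive after scaling to the same sum in place of 50.4%). For Ptch1 it was -0.40 ± 0.34 (adjusted p 0.675) and for Cdon -0.67 ± 0.38 (adjusted p 0.461). For Mycn it was -1.65 ± 0.41 (adjusted p 0.0367, and 0.146 with the block), and over 18 alternatives, of which 12 lost the call, 9 of them by leaving out 1 library, its adjusted p lay between 0.000582 and 0.261.

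Between mESCs and NSCs, Smo, Boc, Cdon and Ptch1 were higher and Gli2 was lower in NSCs, in both lines. Of the 6 members tested at these stages 4 rose and 1 fell in each line. Of all tested genes 36.9% rose and 38.3% fell in WT, and 37.7% rose and 38.2% fell in KO cells. Most tested genes were thus called in either direction, and nothing particular to the pathway is read from the members' count. Scaling each library to the same sum of FPKM shifted the median of all tested genes by 0.37 in WT and 0.43 in KO cells. Of the called genes, 66.2% in WT and 68.3% in KO cells were then higher, in place of 49.1% and 49.7%. These 5 members kept their directions and calls under that scaling, and Gli3 was called higher as well, by 0.57 in WT (limma adjusted p 0.0404) and 0.68 in KO cells (adjusted p 0.0155).

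Smo rose from 13.6, 8.41 and 10.1 FPKM in WT mESCs to 54.4, 43.8 and 36.8 FPKM in WT NSCs, a log2 difference of 1.98 ± 0.14 (limma adjusted p 2.6e-11), and by 2.38 ± 0.14 in KO cells (adjusted p 1.05e-12). Boc rose from 1.68, 1.02 and 1.15 FPKM to 8.41, 10.4 and 8.86 FPKM in WT (2.17 ± 0.21, adjusted p 3.07e-09), with 2.44 ± 0.21 in KO cells (adjusted p 4.04e-10). Both were above each mESC library in each NSC library. Cdon rose by 1.44 ± 0.27 in WT (adjusted p 4.64e-05) and 0.78 ± 0.27 in KO cells (adjusted p 0.0117). Ptch1 rose by 0.99 ± 0.24 in WT (adjusted p 0.000742) and 0.60 ± 0.24 in KO cells (adjusted p 0.0279). The Ptch1 call in KO cells was lost without KO NSC replicate 2 (adjusted p 0.128, difference 0.45) or without KO mESC replicate 3 (0.0825 and 0.53).

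Gli2 fell from 6.19, 14.2 and 6.88 FPKM in WT mESCs to 1.69, 2.50 and 2.36 FPKM in WT NSCs (-1.59 ± 0.21, limma adjusted p 5.77e-07), and by 1.39 on the log2 scale in KO cells (SE 0.21, adjusted p 3.41e-06). Gli1 went from between 13 and 16 reads in WT mESCs to 0 or 1 read in WT NSCs (-0.85 ± 0.30), and from between 8 and 18 reads to between 0 and 2 in KO cells (-0.79 ± 0.30). Arhgap9, which overlaps the Gli1 locus, was listed at 0 in all 6 NSC libraries against 4.09 to 7.41 FPKM in mESCs, and since it is not given whether reads were counted by strand, its part in the Gli1 reads of mESCs was not tested. The size of the Gli1 difference depends on the number added before the log, and it was -3.02 in WT cells with 0.1 in place of 1. Gli3 differed by 0.22 ± 0.24 in WT (adjusted p 0.413) and 0.27 ± 0.24 in KO cells (adjusted p 0.307), with a call under the scaling to the same sum given above. Shh was at 0 or 1 read on either side. Hhip, with no filter on low values, was 0.83 ± 0.17 higher in WT NSCs (adjusted p 0.000193) and 0.46 ± 0.17 higher in KO NSCs (adjusted p 0.0214).

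**Figure D5:**
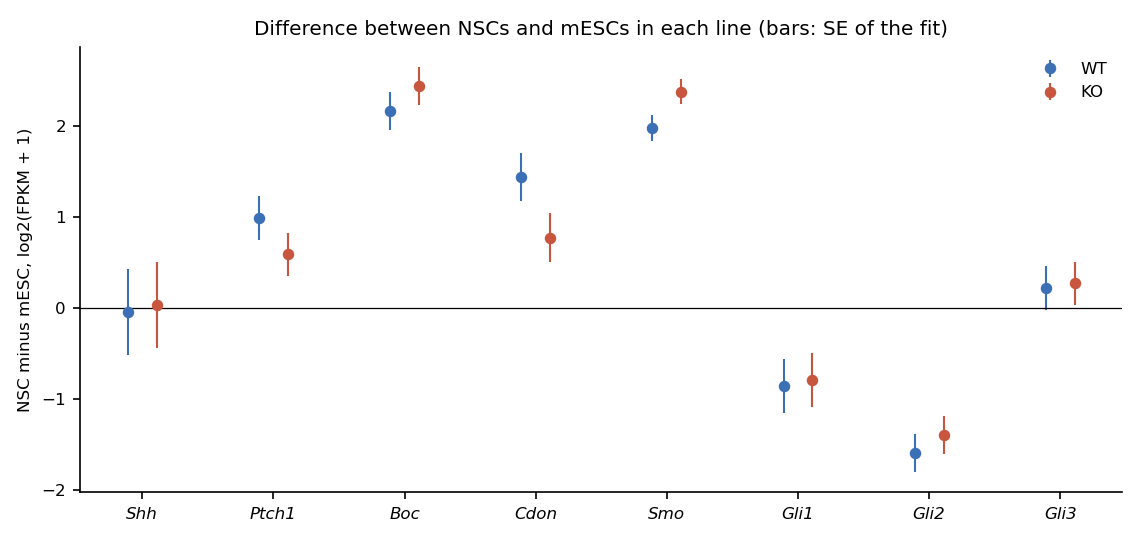
Difference between NSCs and mESCs in log2(FPKM + 1) (vertical axis) for the 8 genes with a mean of at least 1 FPKM over the 24 libraries in WT (blue) and KO (red) cells, each point a fitted difference and each bar its SE. Shh and Gli1 are shown without a test. Boc and Smo are the most raised, at 1.98 or above in both lines, and Gli2 the most lowered, at -1.59 in WT and -1.39 in KO cells.

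Other lists of the pathway are given beside the shares of all tested genes, 36.9% higher and 38.3% lower in WT and 37.7% and 38.2% in KO cells. Of the 10 genes acting on Gli factors 8 rose and 0 fell in each line, with a median log2 difference of 1.06 in WT and 0.91 in KO cells. The largest WT rises were those of Kif7, a kinesin of the cilium tip (1.97 ± 0.14, limma adjusted p 4.26e-11), Prkar1a, a regulatory subunit of protein kinase A (1.40 ± 0.08, adjusted p 3.77e-13), and Gsk3b (1.33 ± 0.13, adjusted p 9.3e-09). Among co-receptors Gas1 rose most, from 2.36, 0.979 and 1.16 FPKM in WT mESCs to 70.8, 59.2 and 66.4 FPKM in WT NSCs (4.77 ± 0.19, adjusted p 1.57e-15). Of the 8 cilium genes 6 rose and 1, Ift88, fell in each line. Of the 10 tested Gli targets 4 rose and 1 fell in WT, and 6 rose and 1 fell in KO cells, and the largest differences were in Olig2, an oligodendrocyte and motor neuron lineage factor that is also an NSC marker here (6.30 ± 0.31 in WT, adjusted p 1.29e-13), and Mycn (-3.63 ± 0.29 in WT, adjusted p 3.56e-10). The levels of Shh and Gli1 near 0 in NSCs stood beside 303 FPKM or more of Olig2 in every NSC library.

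The genes whose levels over the 24 libraries were most like those of Gli1 were Nkx2-9 (Pearson r of log2(FPKM + 1) 0.966), Spink3 (0.965), Shh (0.959), Slit3 (0.949) and Scara3 (0.949). Those most like Ptch1 were Frem1 (0.922), Shh (0.896), Foxa2 (0.891), Prkch (0.879) and Nkx2-9 (0.871). Between Gli1 and Ptch1 r was 0.794, and with Gli1 it was 0.447 for Gli3 and 0.451 for Gli2. These are descriptions over libraries that share 8 groups, so the values are not independent.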

How the data were processed

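The values are FPKM per gene and library, deposited by the authors. Per the labels and the study's methods, stranded mRNA libraries were made, single-end reads were trimmed with Trim Galore 0.6.6 and aligned to mm9 with TopHat2 2.1.1, ribosomal RNA and X-linked reads were removed, and FPKM were estimated with Cuffdiff. The library normalization and whether reads were counted by strand are not given in the sources used here. The table has 36 FPKM columns, of which 12, of samples outside the 24, were not used. Groups come from the sample labels.

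The 9 genes and all gene lists were chosen with earlier results of these data known. Genes outside X and Y with a mean of at least 1 FPKM over the 24 libraries and no failed estimate (1 gene failed) were tested, 12105 in all, 8 of the 9 members among them. limma 3.58.1 (R 4.3.3) was run on log2(FPKM + 1) with 8 group means, trended and robust eBayes and two-sided tests, and p-values were adjusted by Benjamini-Hochberg over all tested genes. The fit was tested on simulated data. Values are mean ± SD of FPKM and differences ± SE. From each list, up to 3 called genes with the largest differences were named in a comparison. Reads of low genes were worked out from FPKM steps: of 31400 values above 0 in low genes, 95.26% were whole multiples within 0.05. Read totals are unknown. Same-numbered WT and KO libraries deviated together, with correlations of 0.289, 0.435 and 0.141 in mESCs and 0.335, 0.184 and 0.24 in NSCs, and were taken as paired there, from the replicate numbers of the labels. The main fit leaves this pairing out, and the fit with the replicate block takes it in. Day 7 and day 9 did not pass this check. One gene of the lists is not reported here and was left out of their counts. The protein sequences planned for comparison were not used here. Alternatives were another pseudocount, no filter, other scalings, the compared libraries alone, a replicate block and leaving out each library.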

Additional observations from a re-analysis of the deposited data

How the results depend on the processing

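The differences of Shh, Ptch1 and Gli1 at day 7 and day 9 kept their sign under every alternative. Leaving out 1 library at a time gave ranges at day 7 of -4.38 to -3.25 for Shh, -2.26 to -1.81 for Ptch1 and -3.43 to -2.74 for Gli1, and at day 9 of -3.52 to -2.46, -1.41 to -0.91 and -1.93 to -1.28. A pseudocount of 0.1 moved Shh to -5.83 and Gli1 to -3.76 at day 7. The count of members called stayed at 0 in mESCs and for the NSC against mESC effect, and went from 0 to 1 (Cdon) in NSCs without 1 library, WT replicate 2. Between NSCs and mESCs, the calls of Smo, Boc, Cdon, Ptch1 and Gli2 in WT cells all held when 1 library was left out. In KO cells that of Ptch1 alone was lost, without KO mESC replicate 3 or KO NSC replicate 2. Shh and Gli1, given untested at these stages, are left out of this. With no filter Hhip, and with the same sum of FPKM Gli3, was called as well in both lines.

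Counts over all tested genes depended more on the fit. With the replicate block, the paired analysis, KO against WT calls were 6 in mESCs (64 without), 12 in NSCs (729) and 34 for the difference of both (274), and it changed no call of a member. At day 7 and day 9, where libraries share only a number, the block gave no call for Nkx2-9, Nkx6-2 and Hsd11b2 at day 7 and for Nkx2-2, Nkx2-9, Nkx6-1, Nkx6-2, Pax3, Pax6, Pax7 and Irx3 at day 9, nor for Lrp2, Nog, Lmx1a and Meox1 at day 7. With the compared libraries alone these were 1, 58 and 57, and 1377 at day 9 (809). With no filter there were 164 in mESCs and 1221 at day 9, and with the same sum of FPKM 42 in mESCs. Leaving out 1 library gave 20 to 112 in mESCs (112 without WT replicate 2), 273 to 521 at day 7, 449 to 752 at day 9, 406 to 1352 in NSCs (1352 without WT replicate 1) and 146 to 607 for the difference (607 without WT NSC replicate 1). The causes were not tested. The same sum of FPKM in each library shifted the median difference between NSCs and mESCs by 0.37 in WT and 0.43 in KO cells, and no called member changed sign. For Shh, Hhip and Gli1 in mESCs and NSCs, depth sets the limit, with at most 18 reads outside Hhip in NSCs.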
